A study of Mus musculus with 6 samples.

Results

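The interleukin 1 family and its receptors were followed here in basal keratinocytes of mouse ear epidermis through 10 genes: the cytokine genes Il1a, Il1b, Il1f6, Il1f9, Il18 and Il33, the antagonist gene Il1rn, the receptor genes Il1r1 and Il1r2, and Irak3, which encodes an inhibitor of the signal. The members were chosen by their symbols, and all 10 were found among the 49671 genes of the deposited table. The study compared castrated male, female and intact male mice of the outbred CD1 stock, with 2 libraries per group. Each library held polyA RNA of 100000 living cells pooled from 2 littermates and sorted for integrin alpha 6, with CD34-positive cells of the hair follicle bulge left out. The sources used here do not give the age of the mice or the time since castration. A library therefore stands for a pool of littermates, a p-value sees only how far such pools scatter, and litter cannot be told apart from sex or castration.

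Cytokines of this family are made by epithelial and immune cells as alarm signals. IL-1 alpha and IL-1 beta act on the receptor encoded by Il1r1, the receptor antagonist encoded by Il1rn occupies that receptor without a signal, and the Il1r2 product binds the cytokines as a decoy. In skin the IL-36 cytokines, encoded by Il1f6, Il1f8 and Il1f9, act on keratinocytes through Il1rl2 and are known from psoriasis, while IL-33 is kept in the nucleus and released on damage. The receptors signal through Myd88 and IRAK kinases to NF-kB, and Irak3 restrains that step.

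Libraries held 8412487 to 9648154 reads. Values are CPM, reads per 1000000 after scaling of library sizes, and 1 read was worth 0.102 to 0.128 CPM. A gene was tested if it reached 1.16 CPM, worth 10 reads at the median depth, in at least 2 libraries and 15 reads in all, as 15413 genes did. Of the members 8 were tested, and Il1a and Il1b were too low. Genes below an adjusted p of 0.05 in limma (two-sided, Benjamini-Hochberg adjustment over all genes tested) were called. Log2 fold changes were taken of CPM + 0.5, which understates the change of low genes, and are given ± SE, whereas CPM and RPKM are given ± SD. The 8 basal keratinocyte markers summed to 45470 and 45270 CPM in castrated males, 41300 and 43480 in females and 42490 and 48750 in males. None was called in any comparison, but they did not move together. In females against males the log2 fold changes were 0.19 for Krt5, 0.215 for Krt14 and 0.041 for Trp63. They were -0.039 for Itga3, -0.114 for Itga6, -0.45 for Itgb4, -0.568 for Col17a1 and -0.708 for Krt15. On the first principal component, with 56.2% of the variance, female replicate 2 (64.17) lay farther out than female replicate 1 (28.92), with the other libraries between -32.39 and -16.58. Counts of called members and listed genes are therefore also given without female replicate 2 where that changes them.

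The promoters of Il1f9 and Il33 are shown because these 2 called members changed in opposite directions between the sexes and the bases before their start sites touch no annotated exon. They are the 250 bases before the start site on the gene's strand, from RefSeq (GRCm38.p6), for Il1f9 chr2:24186226-24186475 and for Il33 chr19:29945540-29945789, both on the plus strand. RefSeq promoters matched 9 of the 10 members. For Il33 the downstream one of 2 listed start sites, inside the gene, was used, and the other was not analysed here. Capitals mark matches to motifs searched on both strands, which were NF-kB, the AP-1 motif TGANTCA, the STAT motif TTCNNNGAA, the androgen and glucocorticoid receptor element AGAACA, the palindromic estrogen receptor element and the TATA box TATAAA.
Il1f9: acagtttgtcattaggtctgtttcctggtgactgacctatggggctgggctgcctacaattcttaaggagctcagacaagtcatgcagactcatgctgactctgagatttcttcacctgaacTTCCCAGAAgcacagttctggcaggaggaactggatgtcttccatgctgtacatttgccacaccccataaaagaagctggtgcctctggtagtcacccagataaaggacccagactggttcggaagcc
Il33: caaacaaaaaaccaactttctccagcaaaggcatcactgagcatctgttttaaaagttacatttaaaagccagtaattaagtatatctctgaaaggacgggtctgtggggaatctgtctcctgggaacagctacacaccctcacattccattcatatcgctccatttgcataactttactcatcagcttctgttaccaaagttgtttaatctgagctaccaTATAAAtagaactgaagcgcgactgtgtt

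In Il1f9 the STAT motif began 128 bases before the start site, and 7.01% of 32817 promoters of this length held that motif. In Il33 the TATA box began 29 bases before the start site, and 12.4% of the promoters held one. The other motifs searched (held by 7.25% for NF-kB, 6.75% for AP-1, 16.1% for AGAACA and 0.064% for the estrogen receptor element) had no match in these 2 windows.

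The members lie in a few places of the genome (GRCm38, GENCODE vM21). Il1f9 (chromosome 2, 24186476 to 24193568), Il1f6 (24215418 to 24225702) and Il1rn (24336853 to 24351494) share a cluster on the plus strand with Il1f8, Il1f5 and Il1f10. Il1b (129364570 to 129371139) and Il1a (129299610 to 129309972) lie farther along chromosome 2 on the minus strand. Il1r2 (chromosome 1, 40074079 to 40125231) and Il1r1 (40225080 to 40317257) head a row of receptor genes on the plus strand that goes on with Il1rl2, Il1rl1, Il18r1 and Il18rap. Il18 lies on chromosome 9 (50554827 to 50581840, plus strand), Il33 on chromosome 19 (29925114 to 29960718, plus strand) and Irak3 on chromosome 10 (120141648 to 120202130, minus strand). Counts cover whole genes, so no exon or isoform can be told apart.

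Levels per length were compared as RPKM, CPM per kilobase of exons. Averaged over the 6 libraries, Il1r2 stood highest at 98.8 RPKM, before Il33 (76.9), Il1rn (35.6), Il1f9 (28.6), Il1r1 (11.9), Irak3 (9.47), Il18 (4.45), Il1f6 (3.20), Il1a (0.353) and Il1b (0.0899). The order was not the same in all groups. Il33 stood above Il1r2 in castrated males, at 86.3 against 84.5 RPKM, and in 3 of the 6 libraries, both castrated male ones and male replicate 2. Il33 had 86.3 ± 6.08 RPKM in castrated males, 48.7 ± 13.1 in females and 95.7 ± 0.319 in males, whereas Il1f9 had 17.0 ± 7.48, 57.7 ± 26.0 and 11.2 ± 5.28 (SD, n = 2 each). Within a library, the level of Il33 per length was 7.77 and 3.69 times that of Il1f9 in castrated males, 1.47 and 0.518 times in females, and 12.7 and 6.41 times in males. The decoy Il1r2 stood above the signalling receptor Il1r1 in every library, by 8.0 and 7.87 times in castrated males, 8.40 and 7.48 times in females, and 11.1 and 6.14 times in males.

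**Figure D1:**
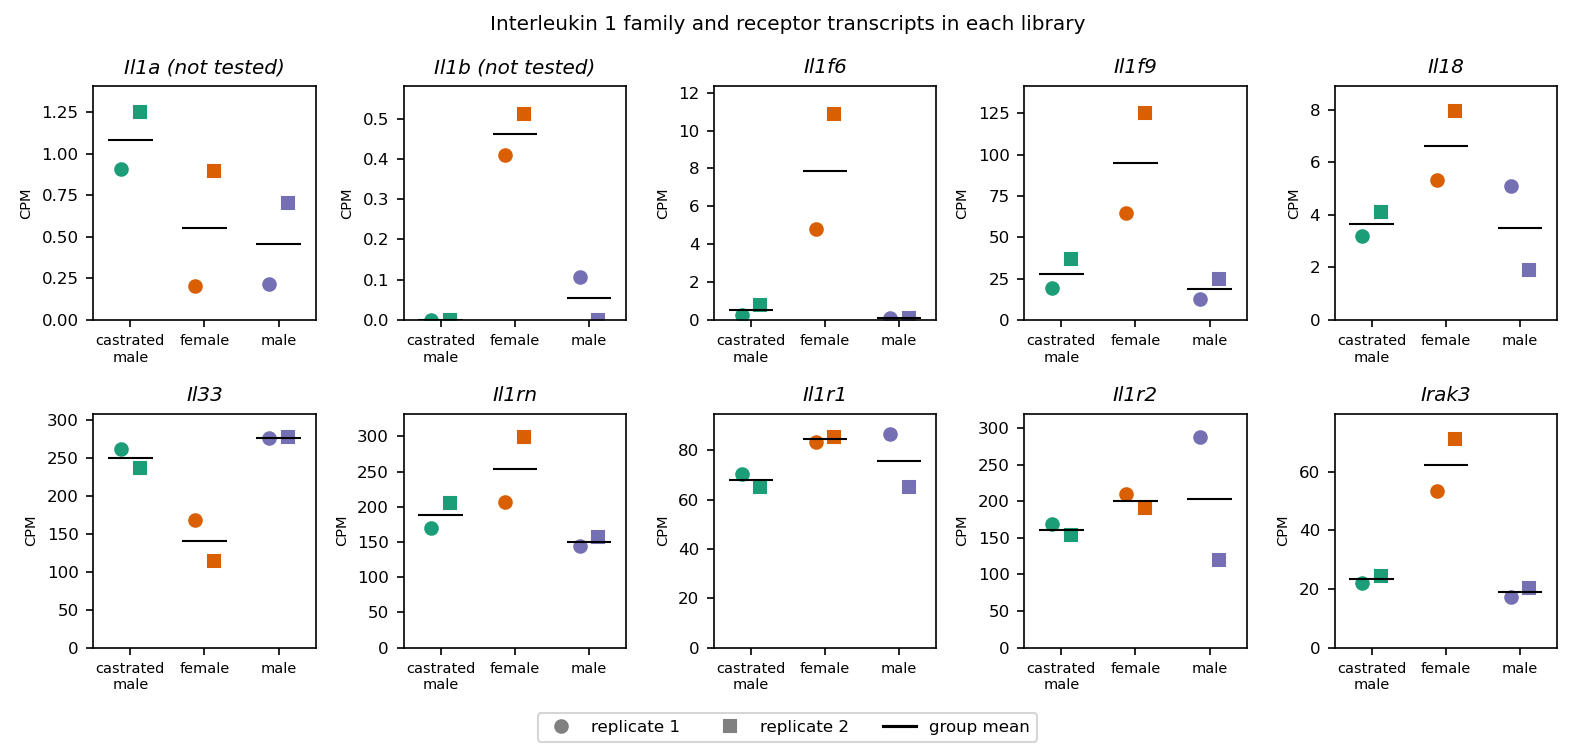
CPM of the 10 members in each library (vertical axes from 0, 1 panel per gene), with castrated males, females and males from left to right, circles for replicate 1, squares for replicate 2 and a line at the group mean. Il1f6, Il1f9 and Irak3 stood higher and Il33 lower in both female libraries than in the other 4, with Il1f9 at 64.8 and 126 CPM in females and at most 36.7 CPM elsewhere.

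Members of the IL-36 group, Irak3 and Il33 differed between females and intact males. Il1f6, which encodes IL-36 alpha, and Il1f9, which encodes IL-36 gamma, rose in females, as did Irak3, and Il33 fell. That made 3 members higher and 1 lower among 8 tested, where 6.1% of all genes tested were called, 3.7% higher and 2.39% lower. Both females lay above both males in 6 of the 10 members and below in 1, against 26.6% and 27.2% of all genes tested. The 6 include Il1b, which was too low to test, and Il1f6, whereas the shares cover tested genes alone. The remaining 4 tested members, Il1rn, Il18, Il1r1 and Il1r2, were not called. The median log2 fold change of the 8 was 0.83, against -0.01 over all genes tested, and both this median and the count include Il1f6, which passed the filter on low values through the female libraries alone and so had to be higher there. Without female replicate 2 only Irak3 was called, and Il1f6 could not be tested.

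Il1f9 stood at 64.8 and 126 CPM in females, against 12.4 and 24.7 CPM in males. Both females lay above both males, and replicate 2 was the higher one in either group. The log2 fold change was 2.33 ± 0.41 (adjusted p = 0.0204, limma). Of 14 alternative settings 12 kept the call, which was lost without female replicate 2 (1.86, adjusted p = 0.186) and with no filter on low values (adjusted p = 0.0845).

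Il1f6 had 47 and 85 reads in females (4.80 and 10.9 CPM), against 1 read in each male library (0.106 and 0.118 CPM). The ratio of pooled reads was 67.2, with a counting interval of 18.2 to 561 (95%, exact), which covers counting error only since reads without molecular identifiers are not independent molecules. The log2 fold change was 3.67 ± 0.47 (adjusted p = 0.00685, limma), and it was 2.15 with a pseudocount of 2 CPM and 5.39 with limma voom. All 12 settings under which the gene could be tested called it. Those 12 leave out the fits without either female library, since Il1f6 passed the filter through the females alone. Their agreement therefore does not test that selection.

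Irak3, whose product IRAK-M blocks the release of active IRAK kinases from the receptor complex, stood at 53.5 and 71.2 CPM in females, against 17.4 and 20.3 CPM in males. The groups did not overlap, and the log2 fold change was 1.69 ± 0.18 (adjusted p = 0.00382, limma). It was called under all 14 alternatives, with adjusted p-values from 0.00364 to 0.0454. Exons of Irak3 share 192 bases with Tmbim4 and 28 with Gm47009 on the other strand, and without a known strand setting reads there cannot be told apart. Tmbim4 stood at 72.7 and 84.0 CPM in females and 72.4 and 60.2 CPM in males (log2 fold change 0.24, adjusted p = 0.341, limma).

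Il33, the nuclear alarmin, stood at 167 and 114 CPM in females, against 276 and 277 CPM in males. Both males lay close together and above both females. The log2 fold change was -0.999 ± 0.174 (adjusted p = 0.0197, limma), between -1.27 and -0.72 under the 14 alternatives. The call was lost under 6 of them, with adjusted p-values up to 0.0884 (without female replicate 2), and also without male replicate 2 or either castrated male library (0.0511 to 0.0638).

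The antagonist Il1rn stood at 206 and 300 CPM in females, against 144 and 157 CPM in males. The groups did not overlap, but the gene missed the threshold (log2 fold change 0.72 ± 0.18, adjusted p = 0.0522, limma). It passed under 3 of 14 alternatives, with library totals alone (0.67, adjusted p = 0.0432), with the replicate block (0.72, adjusted p = 0.0304) and without female replicate 1 (1.00, adjusted p = 0.0123). Il18, a cytokine activated by caspase 1, had 5.32 and 7.95 CPM in females and 5.11 and 1.88 CPM in males (log2 fold change 0.94 ± 0.42, adjusted p = 0.203, limma). Both females stood above both males, replicate 1 of each by a narrow margin.

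The receptors of IL-1 itself did not pass the test. Il1r1 had 83.4 and 85.4 CPM in females and 86.7 and 65.0 CPM in males (log2 fold change 0.17 ± 0.16, adjusted p = 0.546, limma). Il1r2 had 210 and 192 CPM in females and 288 and 120 CPM in males (0.11 ± 0.32, adjusted p = 0.861, limma). The male pools lay on either side of the females for both genes. For Il1r2 the fold change was 0.75 without male replicate 1 (adjusted p = 0.0363, limma) and -0.55 without male replicate 2 (adjusted p = 0.0902, limma), so the choice of the male library set its direction.

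Il1a and Il1b, the founding cytokines of the family, were near the limit of detection. Il1a had 8 and 11 reads in castrated males, 2 and 7 in females, and 2 and 6 in males. The ratio of pooled reads was 1.15 for females against males (counting interval 0.392 to 3.41), 2.42 for castrated against intact males (1.01 to 6.39) and 2.11 for castrated males against females (0.910 to 5.30). Il1b had no reads in either castrated male library, 4 reads in each female library, and 1 and 0 in males. Its ratio was 8.15 for females against males (counting interval 1.09 to 361) and 0 for castrated males against females (0 to 0.586). If 3 reads are set as the limit that a count of 0 allows over the group, castrated males were 2.67-fold lower than females. That figure leaves out the counting error of the female reads. Exons of Il1a share 222 bases with Gm14023 on the other strand, which had 4 to 12 reads per library. Exons of Il1b share 25 bases with Il1bos on the other strand, which had 1 to 9 reads per library.

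**Figure D2:**
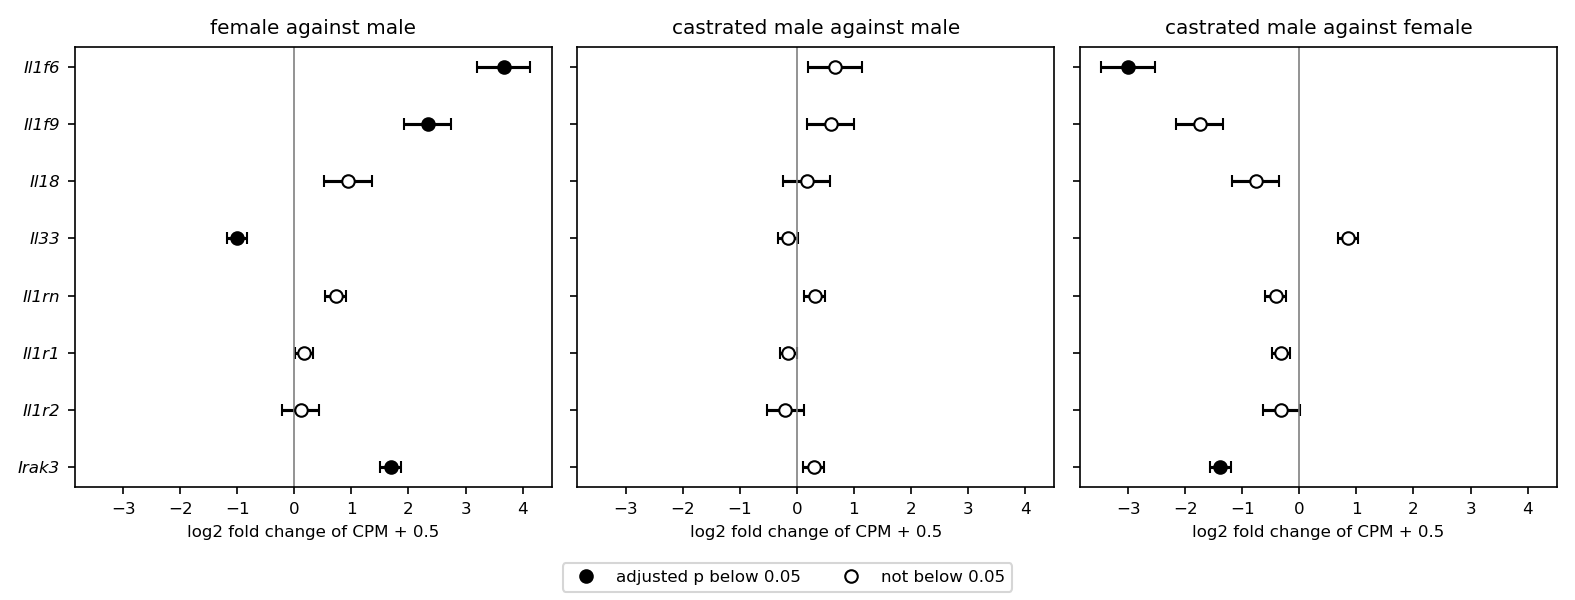
Log2 fold change (horizontal axis, of CPM + 0.5) with its standard error for the 8 tested members in 3 comparisons, filled where the adjusted p in limma was below 0.05. Il1f6, Il1f9 and Irak3 lie right of 0 and Il33 left of 0 in females against males, no member is filled in castrated against intact males, and Il1f6 and Irak3 are filled left of 0 in castrated males against females.

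In castrated against intact males, 0 of 8 tested members were called. Over all genes 0.0389% were called (0.013% higher and 0.026% lower), 6 of 15413, and 914 had an unadjusted p below 0.05. No alternative called a member in this comparison. Il1f9 had 19.2 and 36.7 CPM in castrated males, against 12.4 and 24.7 CPM in males (0.59 ± 0.41 on the log2 scale, adjusted p = 0.974, limma). Il1f6 had 2 and 7 reads in castrated males, against 1 and 1 in males, a ratio of 4.58 with a counting interval of 0.949 to 43.6. The IL-36 values of castrated males thus overlapped those of males for Il1f9 and lay above them for Il1f6.

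Irak3 stood at 22.2 and 24.4 CPM in castrated males, against 17.4 and 20.3 in males (0.30 ± 0.18, adjusted p = 0.945, limma). Il33 stood at 261 and 237 CPM in castrated males, against 276 and 277 in males (-0.15 ± 0.17, adjusted p = 1, limma). Il1rn had 170 and 206 CPM in castrated males, against 144 and 157 in males (0.31 ± 0.18, adjusted p = 0.942, limma). In these 3 genes the castrated pools did not overlap the intact ones, on the side of the females. Both castrated libraries lay above both intact ones in 17.3% of all genes tested and below in 18.2%, against 4 and 1 of the 10 members. The 4 include Il1a, which was too low to test, whereas the shares cover tested genes alone.

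The fold changes of Il18, Il1r1 and Il1r2 after castration were no larger than their standard errors. Il18 had 3.18 and 4.10 CPM in castrated males, inside the range of the intact males (0.17 ± 0.42). Il1r1 had 70.4 and 65.1 CPM (-0.15 ± 0.16) and Il1r2 had 169 and 154 CPM in castrated males (-0.20 ± 0.32), again between the male pools. A p that misses the threshold with 2 pools a group does not show that castration left these genes as they were.

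In castrated males against females Irak3 and Il1f6 fell, 2 of 8 tested members, where 1.73% of all genes tested were called, 1.15% lower and 0.571% higher. Il1f6 had passed the filter on low values through the females alone, the group where it is high, so that nothing is read from its place in this count, and Irak3 was the 1 called member besides it. Both castrated libraries lay below both females in 8 of the 10 members and above in 2, against 28.3% and 29.4% of all genes tested. The 8 include Il1b and the 2 include Il1a, both too low to test, whereas the shares cover tested genes alone. Il1f6 is also among the 8, and nothing is read from its place there. The female libraries are the same as in the comparison with intact males. Irak3 had 22.2 and 24.4 CPM in castrated males, against 53.5 and 71.2 in females (log2 fold change -1.39 ± 0.18, adjusted p = 0.0124, limma). Il1f6 had 0.228 and 0.797 CPM in castrated males, against 4.80 and 10.9 in females (-3.00 ± 0.47, adjusted p = 0.0229, limma).

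Neither gene overlapped between the groups. Il1f6 could not be tested without either female library. The call of Irak3 was lost without female replicate 2 (-1.18, adjusted p = 0.118), where 0 members were called, that of Il1f6 was lost with limma voom (-3.84, adjusted p = 0.0693), and both calls were lost without castrated male replicate 1 (Irak3 0.202, Il1f6 0.268) or 2 (0.103 and 0.102, adjusted p in limma) and with no filter on low values. Il33 had 261 and 237 CPM in castrated males, against 167 and 114 in females, and missed the threshold (0.85 ± 0.17, adjusted p = 0.0517, limma). Il1f9 had 19.2 and 36.7 CPM in castrated males, against 64.8 and 126 in females, and did so too (-1.75 ± 0.41, adjusted p = 0.0735, limma). Il33 was called higher under 4 and Il1f9 lower under 5 of 14 alternatives, among them the fit of only these 2 groups (adjusted p = 0.0466 and 0.0362, limma). Il1rn (-0.41 ± 0.18), Il18 (-0.77 ± 0.42), Il1r1 (-0.32 ± 0.16) and Il1r2 (-0.32 ± 0.32) were not called, with adjusted p-values from 0.234 to 0.6 in limma. Without female replicate 1, Il1rn passed the test (-0.68, adjusted p = 0.042, limma).

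The other ligands and binding proteins include the neighbours of Il1f6 on chromosome 2. Il1f8, which encodes IL-36 beta, had 6 and 14 reads in castrated males, 34 and 53 in females, and 8 and 2 in males. It rose in females against males (log2 fold change 2.43 ± 0.48, adjusted p = 0.0256, limma), having passed the filter through the females alone, and was not called between castrated males and females (adjusted p = 0.0938). The call was lost without female replicate 2, male replicate 2 or either castrated male library, where 0 genes of the list were called. Il1f5, which encodes the antagonist of the IL-36 receptor, had 31.8 and 43.8 CPM in castrated males, 21.8 and 23.3 in females, and 16.4 and 32.2 in males, with fold changes of -0.03 ± 0.29 between females and males (adjusted p = 0.964) and 0.69 ± 0.29 between castrated and intact males (adjusted p = 0.824). Il18bp, whose product neutralises IL-18, kept to 5.76 to 7.03 CPM in all 6 libraries. Il1f10 was too low to test, with 0 to 10 reads per library.

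Of the other receptors 3 of 8 were tested and none was called in any comparison. Il1rl2, the receptor of the IL-36 cytokines, had 226 and 187 CPM in castrated males, 251 and 293 in females, and 224 and 187 in males (females against males 0.41 ± 0.15, adjusted p = 0.14). Il1rap, the shared accessory chain, had 65.1 and 79.8 CPM in castrated males, 51.3 and 50.6 in females, and 62.3 and 93.3 in males (-0.58 ± 0.20, adjusted p = 0.114). Sigirr, an inhibitory receptor, had 3.30 and 3.53 CPM in castrated males, 2.56 and 2.95 in females, and 4.79 and 4.11 in males (-0.61 ± 0.27, adjusted p = 0.21).

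Per length, Il1rl2 averaged 33.5 RPKM over the libraries, above Il1r1 at 11.9, Il1rap at 5.90 and Sigirr at 1.16. The receptor of IL-33, Il1rl1, had 1 read in 1 female library and none elsewhere, which is below the 3 reads that a count of 0 allows. Il18r1 and Il18rap, the chains of the IL-18 receptor, had 2 to 26 and 0 to 8 reads per library. Il1rapl1 and Il1rapl2, relatives known from the brain, had no reads.

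**Figure D3:**
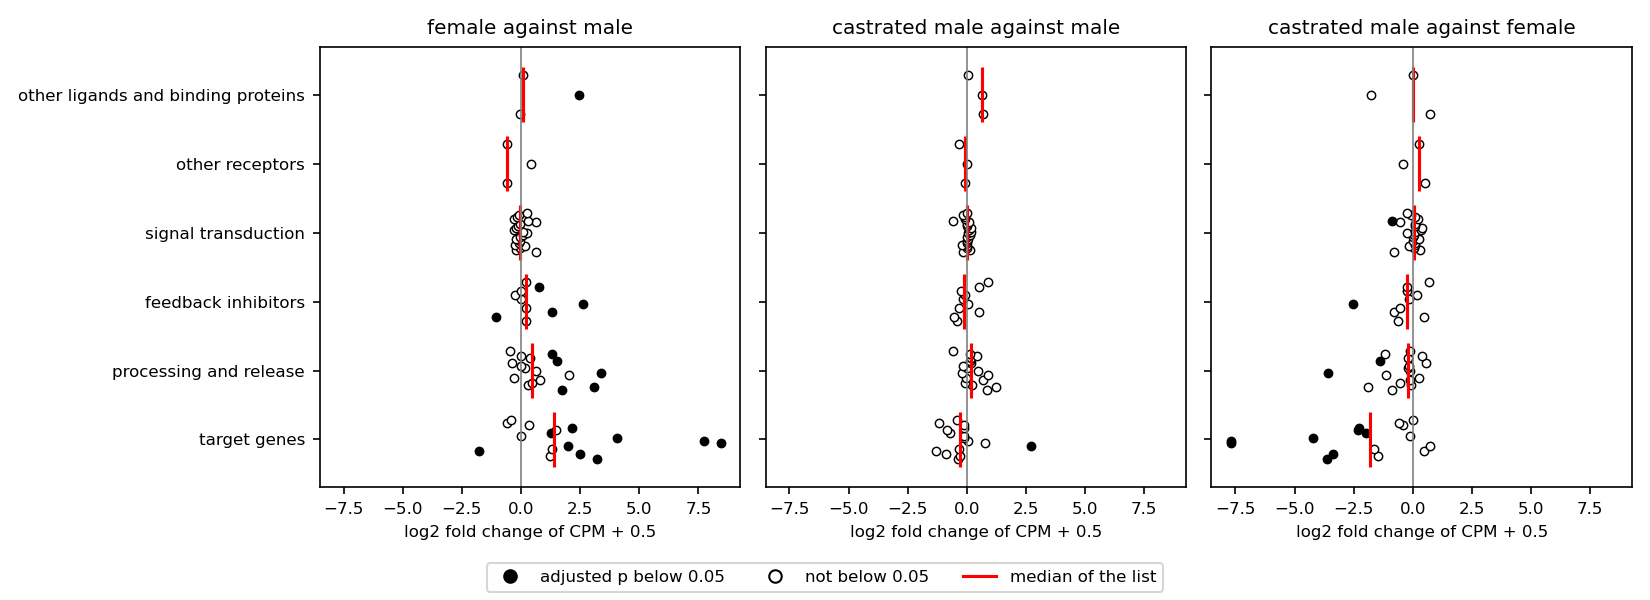
Log2 fold change of CPM + 0.5 (horizontal axis) for the tested genes of 6 lists around the interleukin 1 family in 3 comparisons, filled where the adjusted p in limma was below 0.05, with a red line at each list's median. The median of the signal transduction genes lies near 0 in each comparison, with Nfkb2 filled at -0.86 in castrated males against females, while the median of the target genes is 1.40 in females against males and -1.81 in castrated males against females.

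Of 22 tested genes of signal transduction 0 were called in females against males and 0 in castrated against intact males, with medians of -0.05 and -0.01. Of all genes tested 6.1% and 0.0389% were called in these comparisons. In castrated males against females 1.73% of all genes tested were called, 1.15% lower. Myd88, the adaptor of the receptors, had 41.6 and 47.8 CPM in castrated males, 61.8 and 97.2 in females, and 50.1 and 49.4 in males (females against males 0.64 ± 0.20, adjusted p = 0.0992). Nfkb2, an NF-kB subunit, was the 1 gene called between castrated males and females, with 39.9 and 40.6 CPM in castrated males against 69.3 and 78.5 in females (-0.86 ± 0.13, adjusted p = 0.0206), and it was lost without female replicate 2 or either castrated male library.

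Of the 10 genes listed as feedback inhibitors 3 rose and 1 fell in females against males, with a median of 0.21. Of all genes tested 3.7% were called higher and 2.39% lower, and in castrated males against females 1.15% were called lower. Zc3h12a, whose product Regnase-1 degrades cytokine transcripts, had 136 and 282 CPM in females, against 38.6 and 26.2 in males (2.60 ± 0.31, adjusted p = 0.00536). Nfkbiz, a nuclear IkB protein induced by IL-1 and IL-36, had 65.2 and 78.2 CPM in females, against 23.9 and 33.2 in males (1.33 ± 0.18, adjusted p = 0.00901, limma). Nfkbiz is counted by its place in the list, and whether it acts as an inhibitor in these cells was not tested. Zfp36, whose product destabilises AU-rich transcripts, rose by 0.77 ± 0.17 (adjusted p = 0.034), and Nfkbie, which encodes a cytoplasmic IkB, fell by -1.04 ± 0.24 (adjusted p = 0.0422). With 1 library left out 1 to 3 genes of the list were called, Zc3h12a was the 1 called without female replicate 2, and Nfkbie was called in none of these 6 fits. In castrated males against females Zc3h12a was the 1 called (34.7 and 31.9 CPM against 136 and 282, -2.54 ± 0.31, adjusted p = 0.00806), and 0 were called without either castrated male library.

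Of 17 tested genes for the processing and release of the cytokines 5 rose and 0 fell in females against males, with a median of 0.45. The shares over all genes tested were 3.7% higher and 2.39% lower. Casp4, a caspase that senses bacterial lipopolysaccharide, had 6.85 and 14.0 CPM in females, against 0.426 and 1.06 in males (3.10 ± 0.42, adjusted p = 0.00884). Casp1, which cleaves the precursors of IL-1 beta and IL-18, had 23.9 and 29.8 CPM in females, against 4.69 and 12.2 in males (1.74 ± 0.36, adjusted p = 0.0306). Capn2, a calpain, rose by 1.53 ± 0.28, Gsdmc, a gasdermin, by 3.39 ± 0.62, and Serpinb1a, a protease inhibitor, by 1.32 ± 0.31 (adjusted p = 0.0212, 0.0225 and 0.0432), the last of these named after its value was seen. Capn2 and Gsdmc fell in castrated males against females (adjusted p = 0.0467 and 0.0333, limma), where 1.15% of all genes tested were called lower. Without female replicate 2, or with no filter on low values, 0 genes of the list were called in either comparison. In females against males 3 were called without male replicate 2, 1 without castrated male replicate 1 and 2 without castrated male replicate 2. In castrated males against females 0 were called without either castrated male library.

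The target genes are known to be induced by IL-1 or IL-36 in keratinocytes or other cells. Of 16 tested, 6 passed the filter on low values through the females alone, so the count and the median are a description. Of the 16, 8 rose and 1 fell in females against males, with a median of 1.40, where 3.7% of all genes tested were called higher and 2.39% lower. S100a8 and S100a9, the calprotectin genes, had 174 and 622 and 76.7 and 331 CPM in females, against 0.533 and 0.352 and 0.639 and 0 in males. Their log2 fold changes were 8.46 ± 0.49 and 7.73 ± 0.63 (adjusted p = 0.000115 and 0.000865). Cxcl1, a chemokine that draws neutrophils, had 12.3 and 26.4 CPM in females, against 1.70 and 1.29 in males (3.22 ± 0.38, adjusted p = 0.00536). Tslp, a cytokine of allergic inflammation, was the 1 that fell, with 7.67 and 6.28 CPM in females against 33.8 and 18.3 in males (-1.77 ± 0.29, adjusted p = 0.016), and was chosen after its value was seen. The call of Tslp was lost without female replicate 2 or castrated male replicate 1. Without female replicate 2, 12 genes could be tested and 3 rose, S100a8, Ptgs2 and the keratin gene Krt6a.

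Ptgs2 encodes the inducible cyclooxygenase. It had 20.8 and 26.3 CPM in castrated males, 14.4 and 13.7 in females, and 3.09 and 3.17 in males. It rose in females (2.00 ± 0.21, adjusted p = 0.00376) and in castrated males (2.72 ± 0.21, adjusted p = 0.00439) against the same intact males, and was the 1 target gene called after castration. That call was lost without either castrated male library. In castrated males against females 8 of the 16 target genes fell, where 1.15% of all genes tested were called lower. Among the 8 were S100a8, S100a9, Ccl20 and Cxcl1 (-7.70, -7.68, -3.37 and -3.61, adjusted p = 0.000187, 0.00082, 0.00233 and 0.00357, limma). Of the 8, S100a8, S100a9, Lcn2 and Bcl3 had passed the filter through the females alone, so that nothing is read from their place in this count. Fewer were called without female replicate 2 or either castrated male library.

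Markers of other cells moved with the members in part. The 10 Langerhans and dendritic cell markers summed to 411 and 481 CPM in castrated males, 1088 and 2356 in females, and 380 and 440 in males. Cd74, H2-Ab1 and H2-Aa made up most of each sum. Cd207, Ptprc, Itgax, Csf1r and Cd86 were not called in any comparison. Their log2 fold changes in females against males were -0.28, -0.04, -0.055, 0.33 and 0.66. Of 8 tested, H2-Aa, H2-Ab1 and Cd74, of antigen presentation, rose in females against males and fell in castrated males against females. Of all genes tested 3.7% were called higher in the former comparison and 1.15% lower in the latter. Without female replicate 2 the same 3 rose and H2-Ab1 and Cd74 fell, while Cd207, the langerin gene, had 6.82 and 5.01 CPM in castrated males, 5.32 and 6.92 in females, and 6.60 and 8.46 in males. The 10 macrophage and neutrophil markers summed to 6.82 and 10.2 CPM in castrated males, 7.98 and 18.9 in females, and 7.56 and 6.46 in males. Cxcr2 was the 1 called of 2 tested in females against males, with 0 called without female replicate 2, Ly6g had 1 read in each female library and none elsewhere, and Retnlg had none.

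The 8 T cell markers summed to 75.6 and 153 CPM in castrated males, 16.9 and 74.2 in females, and 95.3 and 102 in males, with 0 of 5 tested called. Thy1 made up most of each sum, at 68.2 and 144 CPM in castrated males, 8.9 and 60.4 in females, and 80.5 and 97 in males. Cd3e, Cd3g and Trdc overlapped between females and males. Trbc1, which passed the filter through the females alone, stood higher there (1.94 and 2.95 CPM, against 0.639 and 0.352 in males). Without female replicate 2, Thy1 of 4 tested was called lower in females against males and higher in castrated males against females. Markers of mast and innate lymphoid cells, fibroblasts, endothelial cells and melanocytes gave 0 calls among 3, 2, 2 and 3 tested in each comparison, and the mast cell genes Cpa3, Mcpt4, Ms4a2 and Fcer1a had no reads. The 10 markers of suprabasal keratinocytes summed to 2978 and 3182 CPM in castrated males, 2912 and 3480 in females, and 2830 and 2288 in males, and Krt1, Cnfn, Krtdap and Flg rose and Dsg1a fell in females against males, with 0 called without female replicate 2. All 10 suprabasal markers were tested, and in females against males 3.7% of all genes tested were called higher and 2.39% lower. In bulk RNA fewer cells of a type and less RNA per cell cannot be told apart. The part of all these cell markers in the members' differences was not tested. Across 15366 genes the log2 fold change of females against males went with exonic length (Spearman rho -0.13, genes not being independent). Il1f6 and Il1f9 have 883 and 1648 exonic bases, Il33 and Irak3 2886 and 3676, and the median of the genes is 3759. The part of length was not tested either.

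**Figure D4:**
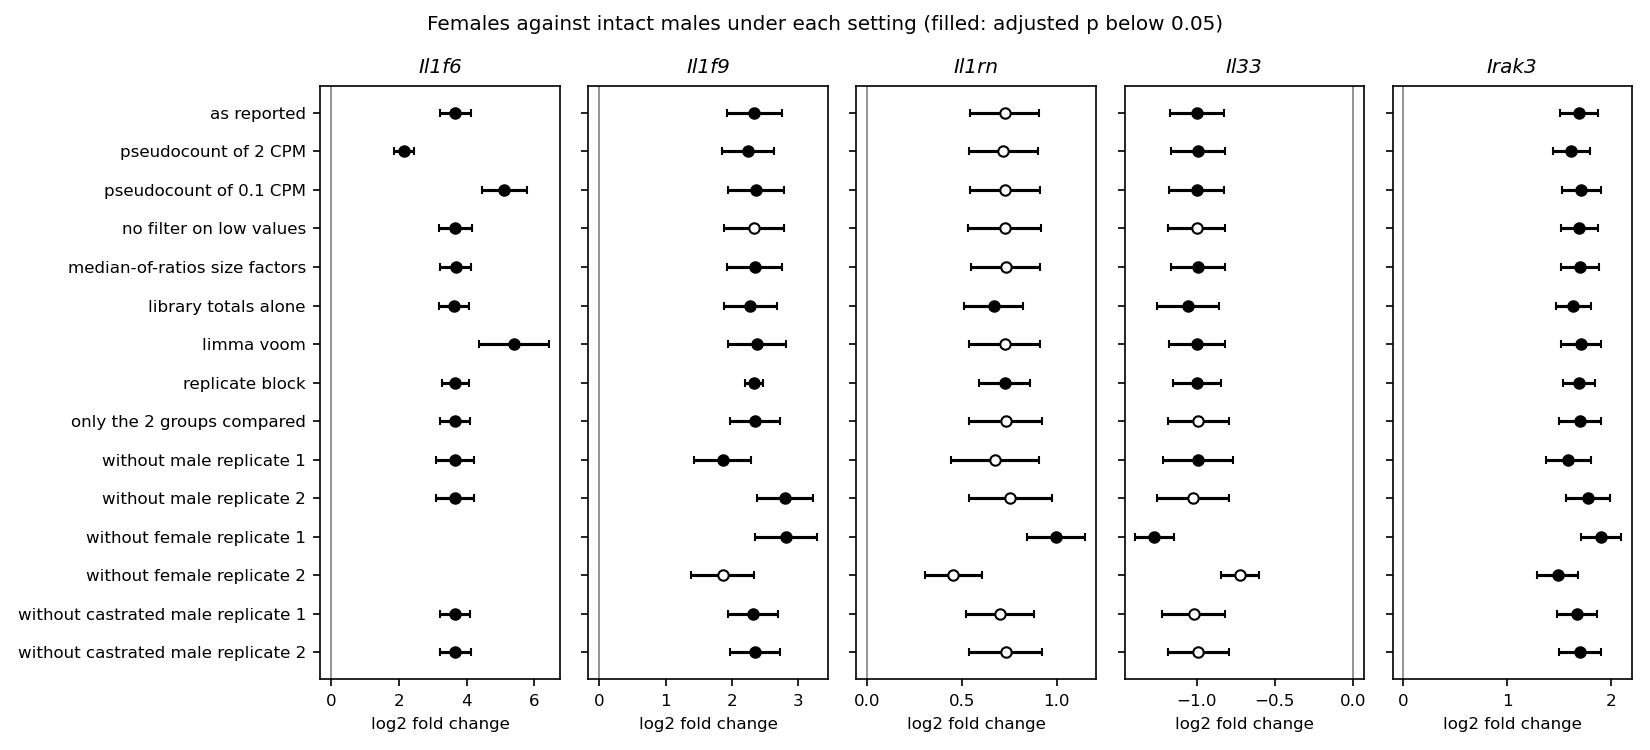
Log2 fold change of females against males (horizontal axes) with its standard error for 5 members as reported and under 14 other settings, filled where the adjusted p in limma was below 0.05; Il1f6 could not be tested without either female library. Irak3 is filled in every row (1.48 to 1.90), Il1f9 and Il33 are open without female replicate 2, and Il1rn is filled in 3 rows.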

How the data were processed

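PolyA RNA of 6 libraries was analysed. The submitters' processing notes name STAR 2.7.5a, HTSeq 0.11.1, Picard and FastQC, and as builds mm10 and GRCm38. Not given in the sources used here are the annotation, the strand setting and how values were scaled. Each deposited value is a score that behaves as the authors' read count per gene, brought to nearly the same total in each library and rounded. In each library at least 99.98% of the values lay within 0.5 of a multiple of 1 step, against 41.77% to 48.22% of arbitrary whole numbers, so each value was divided by its library's step. TMM factors computed on these reads ran from 0.927 to 1.03.

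Tests used limma 3.58.1 in R 4.3.3 on log2(CPM + 0.5) with an intensity trend, 1 mean per group and all libraries in 1 fit with 3 residual degrees of freedom. The procedure was tested on simulated data. The second male sample carries another number in its library name, and its title was used. Replicates differed by more than sampling noise (chi-square per degree of freedom from 4.79 to 13.6). GENCODE vM21 held 49412 of the 49671 genes. Members and lists were chosen with earlier results of these data known. The text names all members, all listed ligands and receptors, and up to 4 called genes with the smallest p of each other list and comparison. Serpinb1a, Tslp, Krt6a, Lcn2, Bcl3, Myd88, the marker genes and the cytokine genes at the end fall outside this rule and were named after their values were seen.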

Additional observations from a re-analysis of the deposited data

How the results depend on the processing

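Called genes and members were recomputed under 14 alternatives; of 329 values of single members, 294 kept their direction and their side of the threshold. The counts of called genes rested on the settings. In females against males 940 genes were called as reported, 103 with no filter on low values, 265 with only the 2 groups compared, and 49 to 1773 with 1 library left out. For castrated against intact males 6 were called, 11 with a pseudocount of 2 CPM, 2 with no filter, and 1 to 74 with 1 library left out. For castrated males against females 266 were called, 33 with no filter, 88 with limma voom, 560 with only the 2 groups compared, and 21 to 1323 with 1 library left out. In females against males 49 were called without female replicate 2, 1773 without female replicate 1, 204 without castrated male replicate 1 and 271 without castrated male replicate 2. The members called were 4 in females against males, 2 with no filter and 1 to 5 with 1 library left out, and 2 in castrated males against females, 0 with no filter, 1 with limma voom, 4 with only the 2 groups compared and 0 to 4 with 1 library left out. In castrated against intact males 0 members were called under each alternative. The cause of these shifts was not tested. Some of these fits also held fewer libraries or more genes, and the part of that was not tested either. Signs turned only where a male library was left out. With 1 library left out, the log2 fold change in females against males ran from -0.065 to 0.383 for Il1r1 and from -0.547 to 0.75 for Il1r2, lowest without male replicate 2 and highest without male replicate 1. In castrated against intact males it ran from -0.358 to 0.065 for Il1r1, from -0.84 to 0.431 for Il1r2 and from -0.45 to 0.795 for Il18, again lowest without male replicate 2 and highest without male replicate 1. With the replicate block 162 genes were called in castrated males against females, Il1rn passed in females against males and Il1f9 passed in castrated males against females (adjusted p = 0.00339, limma). The numbers were not taken as pairs, since the labels do not say that a number marks a shared litter, batch or day. The deviations of same-numbered libraries correlated at -0.15 for males and females, -0.01 for intact and castrated males, and 0.19 for females and castrated males. Counts within the pathway lists were recomputed as alternatives chosen after seeing the data. Negative binomial tests were not run, since the deposited values are rounded. With 1 read worth over 0.1 CPM, the depth limits Il1a, Il1b, Il1f6 and Il18.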

Other observations

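Several cytokine genes among the target genes were too low to test. Il19, a cytokine of the IL-10 family that keratinocytes make in inflammation, had no reads in castrated males, 5 and 36 in females and 0 and 3 in males. Il6 had 2 and 4 reads in females and none in either male group. Tnf, which was tested, had 12 and 40 reads in females, against 9 and 5 reads in males (adjusted p = 0.185 in limma, at a log2 fold change of 1.31 ± 0.55). Tnf had passed the filter on low values through the females alone, so nothing is read from its direction. Il24 had 2 and 1 reads in males and none in the other groups, and no reads were found for Csf2 or Ccl7.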
